A study of Zea mays with 12 samples.

Results

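The early response of maize seedling roots to tunicamycin was measured as the change in mRNA after 6 hr of treatment, set against roots collected at 0 hr. Of the 12 libraries in the series, 4 enter this comparison, which are the duplicate RNAseq libraries of 6 hr and of 0 hr. Every gene that passed a filter on low counts was a member, which gave 23721 of the 39498 genes in the count table. The filter and the fit used all 6 RNAseq libraries, those of 12 hr included. Of the genes in the table, 32986 had at least 1 count in these 4 libraries.

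The study followed the unfolded protein response in the roots of maize seedlings of the inbred line B73 and asked how far mRNA levels and ribosome occupancy move together under endoplasmic reticulum (ER) stress. The treated groups were roots of seedlings given 5 µg/ml tunicamycin (TM), dissolved in DMSO, for 6 or 12 hr, and the group they were compared with was roots at 0 hr of the same treatment, with 2 biological replicates per time point. Total RNA was sequenced as short fragments (RNAseq), and mRNA fragments protected by ribosomes (RPFs) were sequenced from the same time points (ribo-seq). Mock-treated roots were not analysed here, so the effect of TM cannot be told apart from that of DMSO or of the hours in between. These are bulk roots, in which fewer cells of a type and less RNA per cell cannot be told apart. The table names genes only by locus identifier, so neither the tissue nor the pathway lists could be checked against marker genes, and names are given only to the 7 genes that the study pairs with a complete identifier.

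TM blocks the first step of N-linked glycosylation, so that proteins entering the ER fail to fold. Plants sense misfolded proteins through membrane-bound transcription factors and through IRE1, an enzyme that splices the mRNA of a bZIP factor, and both arms raise the transcription of genes for ER chaperones, folding enzymes and components of ER-associated degradation. This unfolded protein response (UPR) is well described in roots of seedlings treated with TM.

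After 6 hr of TM the mRNAs of all 4 UPR genes with a known identifier stood several fold above their 0 hr level, and those of PAB2, alpha tubulin 3 and actin did not pass the test. Across all genes, 26 of 23721 changed at an adjusted p under 0.05 in edgeR's quasi-likelihood test with TMM scaling, which is 0.110% of the genes tested. Of these, 21 rose (0.0885%) and 5 fell (0.0211%), and each changed more than 2-fold. The levels below are CPM, the coding-sequence counts of a gene scaled to the library total and adjusted between libraries by TMM (trimmed mean of M values), and each log2 change is 6 hr over 0 hr.

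Sequencing depth was 9861654 and 3976120 counts in the 6 hr libraries, against 2019128 and 5285471 counts in the 0 hr libraries. Replicate 1 of 0 hr was thus the shallowest library. For the 10133 better covered genes, those averaging 100 counts or more in these libraries, the duplicates differed by a median of 0.17 on the log2 scale at 6 hr and of 0.33 at 0 hr. The share of these genes that differed more than 2-fold between duplicates was 0.434% at 6 hr and 5.92% at 0 hr. The 0 hr duplicates were therefore the less alike pair, with Pearson r across genes of 0.994 at 6 hr and 0.954 at 0 hr.

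BIP2 (Zm00001d014993) encodes a luminal binding protein, the HSP70 chaperone of the ER and the standard marker of the UPR. It had 2333 and 2101 CPM in the 6 hr libraries, against 353 and 512 CPM in the 0 hr libraries. Both treated libraries lay far above both 0 hr libraries, and the gap within each pair of duplicates was small beside the gap between them. The fitted change was 2.35 on the log2 scale (SE 0.25, n = 2 libraries per time point), or 5.11-fold, with adjusted p = 0.00422 (edgeR quasi-likelihood test). Behind it stood 23044 and 8461 raw counts at 6 hr, against 702 and 2664 raw counts at 0 hr, so counting error was a minor part of the spread.

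ERDJ3a (Zm00001d047726) encodes a DnaJ protein, a co-chaperone that works with BiP in the ER lumen. Its mRNA had 383 and 354 CPM at 6 hr, against 49.7 and 30.6 CPM at 0 hr. The duplicates of 0 hr differed more, in proportion, than those of 6 hr, and the groups did not overlap. The change was 3.24 on the log2 scale (SE 0.30), or 9.42-fold, with adjusted p = 0.00178 (edgeR quasi-likelihood test). This was the largest change among the 4 UPR genes, and 99.7% of all genes tested had a smaller one.

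PDI-2 (Zm00001d005866) encodes a protein disulfide isomerase, which forms and rearranges disulfide bonds in ER client proteins. Its mRNA had 203 and 192 CPM at 6 hr, against 33.2 and 52.7 CPM at 0 hr. The 4.50-fold rise (log2 2.17, SE 0.24) had adjusted p = 0.00529 (edgeR quasi-likelihood test). As for BIP2, replicate 1 was the lower of the 0 hr duplicates.

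Derlin 1 (Zm00001d010368) encodes a membrane protein of the ER-associated degradation machinery, which moves misfolded proteins out of the ER. Its mRNA had 144 and 132 CPM at 6 hr, against 45.7 and 27.3 CPM at 0 hr. The change was 1.96 on the log2 scale (SE 0.26), or 3.89-fold, with adjusted p = 0.0150 (edgeR quasi-likelihood test). It was the smallest and the least secure of the 4. With actin scaling the adjusted p was 0.104, and it was 0.396 without replicate 1 and 0.117 without replicate 2 of 6 hr.

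Leaving out 1 library of 6 hr ended the call for other UPR genes as well. In such a fit the 1 treated library left was assumed to vary like the other groups. Why the calls were lost was not tested. Without replicate 1 of 6 hr the adjusted p was 0.120 for BIP2 and 0.160 for PDI-2, and without replicate 2 it was 0.0700 for PDI-2, all by edgeR's quasi-likelihood test. ERDJ3a passed the test in every alternative tried, with adjusted p no higher than 0.0457.

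**Figure D1:**
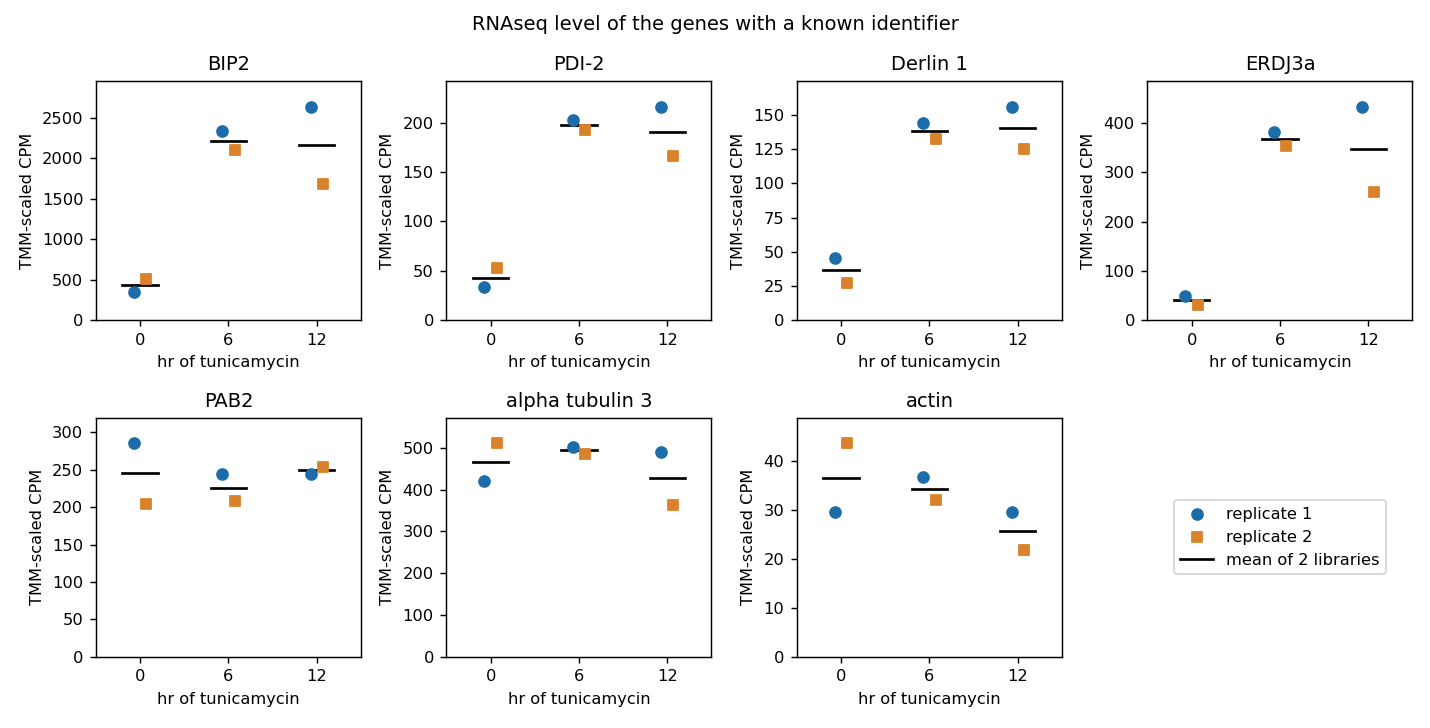
TMM-scaled CPM in each RNAseq library (vertical axis, from 0) at 0, 6 and 12 hr of TM (horizontal axis) for the 7 genes with an identifier in the study. Points are single libraries and bars the mean of 2. BIP2, PDI-2, Derlin 1 and ERDJ3a are above both 0 hr libraries in both 6 hr libraries, while the points of PAB2, alpha tubulin 3 and actin at 6 hr fall between those of 0 hr.

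The other 3 genes serve as comparisons outside the UPR. PAB2 (Zm00001d005276), a poly(A)-binding protein of cytoplasmic mRNAs, had 244 and 208 CPM at 6 hr, against 285 and 205 CPM at 0 hr. Both 6 hr values lay between the 0 hr duplicates, and the change was -0.11 on the log2 scale (SE 0.20, edgeR quasi-likelihood adjusted p 0.942). Alpha tubulin 3 (Zm00001d013367), a subunit of microtubules, had 502 and 486 CPM at 6 hr, against 420 and 511 CPM at 0 hr. Its log2 change was 0.08 (SE 0.20, adjusted p 0.961). Actin (Zm00001d013873), the cytoskeletal gene to whose counts the study scaled its libraries, had 36.8 and 32.03 CPM at 6 hr, against 29.6 and 43.7 CPM at 0 hr. Its log2 change was -0.11 (SE 0.27, adjusted p 0.963). These standard errors leave room for modest changes in either direction.

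Scaling to actin rests on few counts. The libraries held 363 and 129 actin counts at 6 hr and 59 and 227 at 0 hr, for a counting error of 5.25% and 8.80% at 6 hr and of 13.0% and 6.64% at 0 hr. Relative to total counts, actin scaling moved the libraries by factors of 1.17 and 1.03 at 6 hr and of 0.931 and 1.37 at 0 hr, whereas all TMM factors of these libraries were between 0.988 and 1.02. Actin scaling therefore shifted the 0 hr duplicates against each other, which brought them closer for some genes and further apart for others. The spread between replicates, given as the common biological coefficient of variation, was 0.334 with actin scaling, against 0.242 with TMM and 0.243 with total-count scaling.

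The direction and size of the UPR changes held under all 3 scalings. With total-count scaling the log2 changes were 2.39 for BIP2, 2.20 for PDI-2, 1.99 for Derlin 1 and 3.27 for ERDJ3a. With actin scaling they were 2.45 (SE 0.26), 2.30 (SE 0.31), 1.94 (SE 0.39) and 3.22 (SE 0.39) in the same order. Per 100 actin counts, BIP2 had 6348 and 6559 counts at 6 hr, against 1190 and 1174 counts at 0 hr, so on this scale its duplicates were closer than on the TMM scale. For Derlin 1 the 0 hr duplicates were further apart on this scale, with 154 and 62.6 counts per 100 actin counts. Its 6 hr duplicates had 391 and 412 counts per 100 actin counts and were not. The adjusted p with actin scaling was 0.000568 for BIP2, 0.00360 for PDI-2 and 0.00146 for ERDJ3a by edgeR's quasi-likelihood test, so that Derlin 1 was the only one of the 4 to lose its call.

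**Figure D2:**
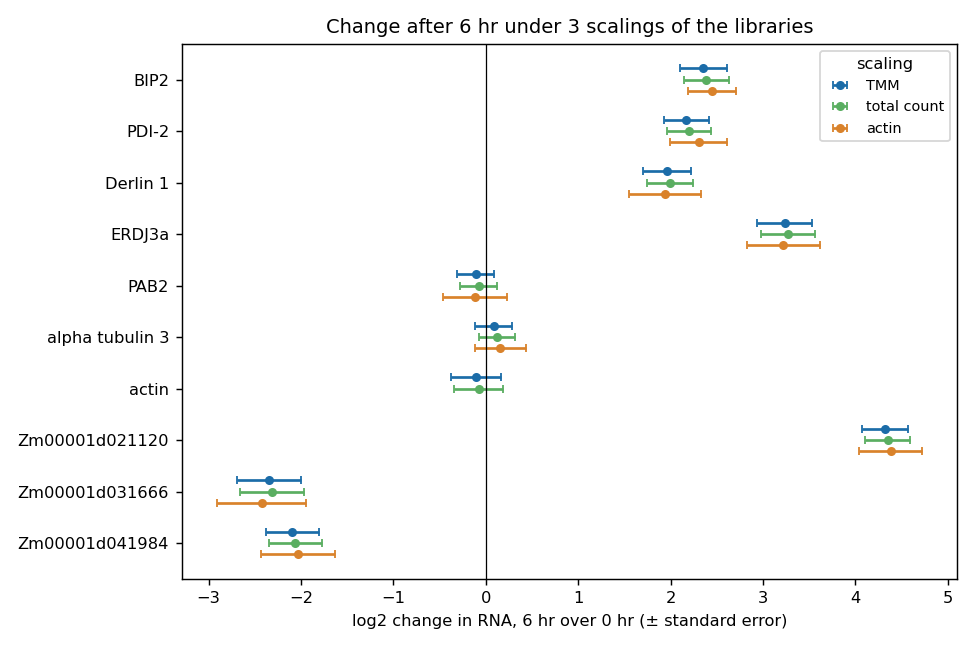
Log2 change in RNA at 6 hr over 0 hr (horizontal axis, with standard error) of the named genes under TMM, total-count and actin scaling. Actin has no value under its own scaling, and Zm00001d043574 is left out because its 0 hr libraries held no count. For each gene the 3 points lie within their standard errors of each other, and the error is widest with actin scaling for most genes.

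The scaling moved the number of genes called more than it moved any of the 4 UPR genes. With total-count scaling 31 genes rose (0.131%) and 8 fell (0.0337%), and these included all 26 genes called with TMM. With actin scaling 21 rose (0.0885%) and 1 fell (0.00422%), of which 15 and 1 were also called with TMM. The share of calls that were rises was thus 80.8% with TMM and 95.5% with actin scaling. It was 79.5% with total-count and 89.7% with alpha tubulin 3 scaling. Other processing gave fewer rises than falls, with 46.8% for DESeq2, 45.5% for limma voom and 40.2% for edgeR with no low-count filter. The median log2 change of all genes was -0.01 with TMM, 0.03 with total counts and 0.07 with actin, and the share of genes above 0 was 49.5%, 52.6% and 56.4% in that order.

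TMM scaling centres the bulk of the 23721 genes near no change, so a shift shared by most mRNAs could not be seen. With TMM scaling the middle 50% of genes (25th to 75th percentile) lay between -0.30 and 0.29 on the log2 scale, and the 5th and 95th percentiles were -0.99 and 0.99. More than 2-fold changes were as frequent upward (4.88%) as downward (4.92%), mostly in genes with few counts. Among the 10133 better covered genes, 82 were more than 2-fold higher and 123 more than 2-fold lower at 6 hr, of which 18 and 5 passed the test. At an unadjusted p under 0.05, 911 genes were higher and 974 lower, against 1186 in both directions together for 5% of the genes tested.

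The count of calls varied with the libraries. Without replicate 2 of 0 hr, 94 genes rose and 172 fell, and without replicate 1 of 0 hr 26 rose and 14 fell. Without replicate 1 of 6 hr 3 rose and 0 fell, and without replicate 2 of 6 hr 6 rose and 0 fell. The 12 hr libraries were not compared here, but they entered the low-count filter, the scaling and the estimate of the spread. With only the 4 libraries of 6 and 0 hr, 22264 genes were tested, and 29 rose and 8 fell. DESeq2 called 65 rises and 74 falls, and limma voom 25 and 30. The 21 risen and 5 fallen genes kept their direction in all of the 20 alternatives. Since the same libraries had chosen these genes, that is no further evidence. Still called were 21 and 5 of them with DESeq2, 17 and 5 with limma voom, and 18 and 3 with alpha tubulin 3 scaling.

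**Figure D3:**
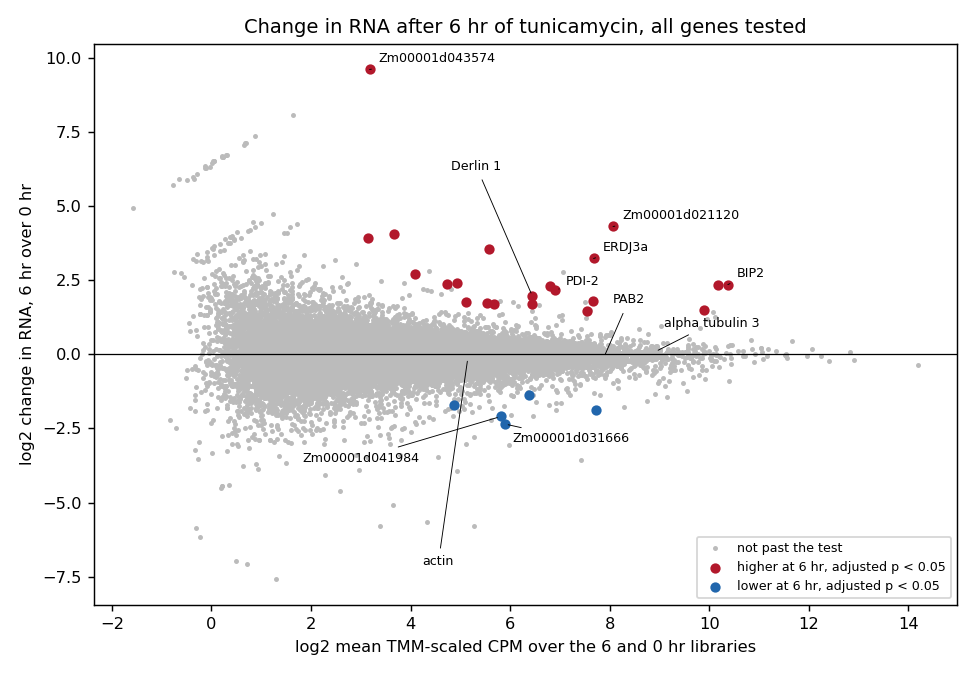
Log2 change in RNA at 6 hr over 0 hr (vertical axis) against the log2 mean CPM over the 6 and 0 hr libraries (horizontal axis, 0.01 CPM added) for the 23721 genes tested. Coloured points passed an adjusted p of 0.05. The 21 risen genes averaged 59.75 counts or more over the 4 libraries, and the widest changes in grey are at low levels. The height of Zm00001d043574, which had no count at 0 hr, depends on the prior count.

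The 21 genes that rose had a median log2 change of 2.33, which was the same with the 1 gene at 0 in both 0 hr libraries set to its bound. Leaving that gene aside, the changes ran from 1.46 to 4.32. The 4 UPR genes are among them. The mean level of these genes at 6 hr ran from 16.7 to 2217 CPM with a median of 133 CPM, and at 0 hr from 0 to 498 CPM with a median of 25.7 CPM. Together they took 8572 and 7719 CPM of the 6 hr libraries, against 1661 and 1976 CPM of the 0 hr libraries. BIP2 made up 2333 and 2101 CPM of the sum at 6 hr, and the unnamed gene Zm00001d054043 made up 2030 and 1815 CPM. Since the call itself used these values, it is no further evidence that in all 21 genes both 6 hr libraries were above both 0 hr libraries, a pattern seen in 19.5% of the genes tested.

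The most changed of the risen genes with counts at both times was Zm00001d021120, for which no gene name was available. It had 546 and 475 CPM at 6 hr, against 26.1 and 25.2 CPM at 0 hr. Its duplicates agreed closely at both times, and its 19.9-fold rise (log2 4.32, SE 0.25) had the smallest adjusted p in the comparison, 3.36e-05 by edgeR's quasi-likelihood test. With actin scaling its log2 change was 4.38.

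Zm00001d043574, also without a name, had no count in either 0 hr library. It had 158 and 81 counts at 6 hr and 292 and 114 counts at 12 hr. Set against a floor of 3 counts per library, which is 1.51 CPM in replicate 1 and 0.577 CPM in replicate 2 of 0 hr, it was at least 17.3-fold higher at 6 hr. Its adjusted p was 0.00492 by the edgeR quasi-likelihood test, 0.160 with limma voom and 0.0518 without replicate 1 of 6 hr. At the depth of the 0 hr libraries its absence cannot be shown.

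The 5 genes that fell changed by -2.35 to -1.38 on the log2 scale, with a median of -1.86 (-1.83 with total-count and -1.79 with actin scaling). Together they took 188 and 195 CPM of the 6 hr libraries, against 713 and 662 CPM of the 0 hr libraries. None of them has a name in the sources used here. The 1 fallen gene that was also called with actin scaling was Zm00001d041611. It had 93.6 and 88.4 CPM at 6 hr, against 298 and 364 CPM at 0 hr. Its log2 change was -1.86 (SE 0.19, edgeR quasi-likelihood adjusted p 0.00296), and -1.79 with actin scaling (adjusted p 0.0380). The pattern in which both 6 hr libraries are below both 0 hr libraries, shown by all 5, was seen in 18.0% of the genes tested.

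The largest fall was that of Zm00001d031666, which had 19.3 and 18.9 CPM at 6 hr, against 141 and 58.3 CPM at 0 hr. The 6 hr duplicates were nearly equal, while replicate 1 of 0 hr stood well above replicate 2. The log2 change was -2.35 (SE 0.35), with adjusted p = 0.0311 (edgeR quasi-likelihood test). With actin scaling it was -2.43 and the adjusted p 0.102. Its size rested in part on replicate 1 of 0 hr. Without that library its log2 change was -1.60, smaller than the -2.06 of Zm00001d041984 in the same fit.

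Zm00001d041984 had 18.1 and 24.8 CPM at 6 hr, against 93.4 and 88.3 CPM at 0 hr. Here the 0 hr duplicates were close and the log2 change was -2.10 (SE 0.29), with adjusted p = 0.0208 (edgeR quasi-likelihood test). With actin scaling it was -2.03 and the adjusted p 0.0933. Both falls also missed the threshold when either library of 6 hr was left out, with adjusted p between 0.160 and 0.688. That of Zm00001d031666 was 0.0626 when only the 4 libraries of 6 and 0 hr were fitted.

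**Figure D4:**
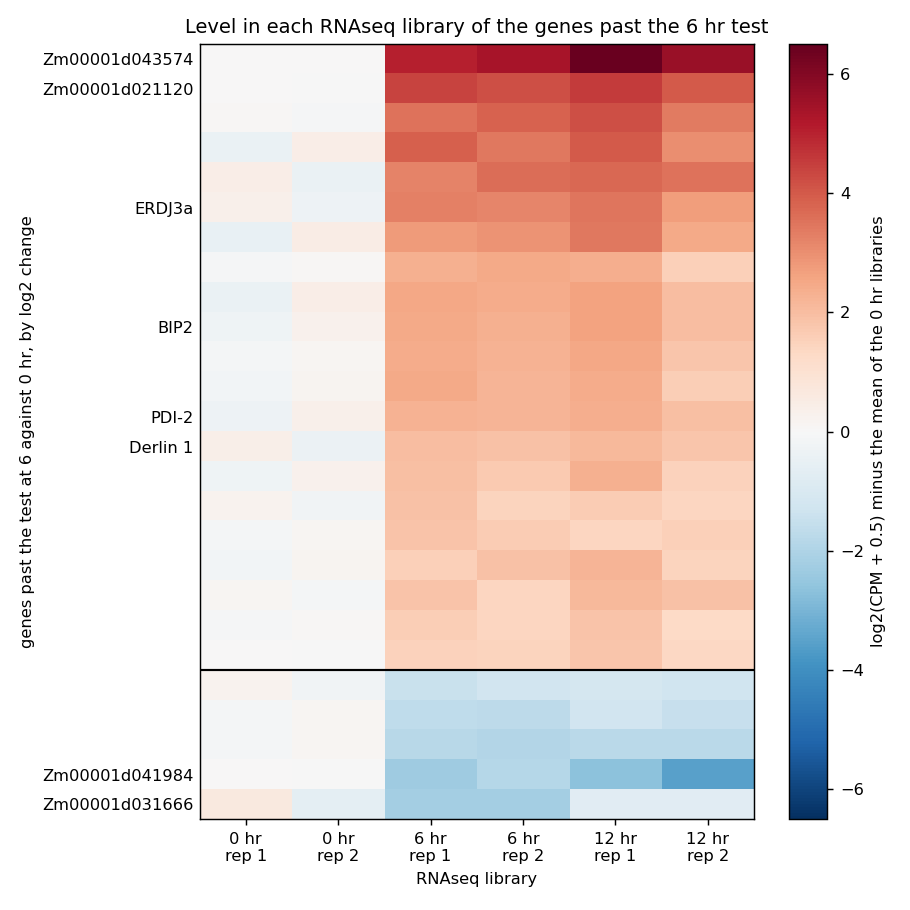
Level of the 26 called genes in every RNAseq library, as log2(CPM + 0.5) minus the mean of the 0 hr libraries (colour, red higher and blue lower), with time points in columns and genes in rows ordered by log2 change. The line parts the 21 risen from the 5 fallen genes, which were all chosen by their 6 hr change. Most risen genes show much the same colour at 6 hr and 12 hr, with replicate 2 of 12 hr paler than replicate 1.

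The 6 hr level of the UPR genes was then placed beside that of 12 hr. BIP2 had 353 and 512 CPM at 0 hr, 2333 and 2101 CPM at 6 hr and 2636 and 1679 CPM at 12 hr. The 12 hr libraries stood on either side of both 6 hr libraries, and the log2 change of 12 hr over 6 hr was -0.04 (SE 0.24). ERDJ3a gave 434 and 260 CPM at 12 hr (12 hr over 6 hr -0.09, SE 0.26), PDI-2 gave 216 and 166 CPM (-0.05, SE 0.23), and Derlin 1 gave 156 and 125 CPM (0.03, SE 0.23). In each of these genes replicate 1 of 12 hr was above and replicate 2 below both 6 hr libraries. Actin had 29.7 and 21.9 CPM at 12 hr, with a log2 change over 6 hr of -0.41 (SE 0.27).

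No gene of 23721 passed the test between 12 hr and 6 hr (0%), and none of the 7 genes with an identifier did. At an unadjusted p under 0.05, 286 genes were higher and 280 lower at 12 hr in edgeR's quasi-likelihood test. DESeq2 called 11 genes and limma voom 0, while edgeR called 59 with no low-count filter, 13 with the 6 and 12 hr libraries only, 19 without replicate 1 and 20 without replicate 2 of 0 hr. The sign for BIP2, PDI-2 and ERDJ3a depended on the scaling, since with actin scaling their log2 changes of 12 hr over 6 hr were 0.36, 0.37 and 0.30, while Derlin 1 was at 0.45. The standard errors do not show that the levels were equal at both times. The 6 hr libraries enter both this comparison and that with 0 hr.

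For the 21 genes called at 6 hr, the median log2 change was 2.33 for 6 hr over 0 hr and 2.12 for 12 hr over 0 hr. Both comparisons share the 0 hr libraries. The genes were also chosen by their 6 hr change, so these medians cannot show how the level moved after 6 hr. The summed level of these genes was 1661 and 1976 CPM at 0 hr, 8572 and 7719 CPM at 6 hr, and 9743 and 6349 CPM at 12 hr. For the 5 fallen genes the sums were 713 and 662 CPM at 0 hr, 188 and 195 CPM at 6 hr, and 237 and 225 CPM at 12 hr.

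The ribo-seq libraries of the same time points gave a second readout that was not used to choose the genes. Per the study's methods, RNA and RPFs came from the same root lysates. Differences between the root samples can therefore enter both readouts, which are not independent. Of 20414 genes tested, 13 had more RPFs at 6 hr (0.0637%) and 0 had fewer in edgeR's quasi-likelihood test. At an unadjusted p under 0.05, 365 were higher and 428 lower, and these 793 genes were fewer than 5% of those tested. DESeq2 called 9 genes with fewer RPFs and limma voom 1, and with actin scaling edgeR called 13 with more and 42 with fewer. Among the 21 genes whose mRNA rose, all 21 were tested and had a log2 RPF change above 0, against 49.5% of all genes tested, and 11 passed the test. Their RPF changes ran from 0.81 to 3.99 with a median of 2.19, and the median of all genes was -0.00.

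BIP2 RPFs reached 3244 and 2654 CPM at 6 hr, against 604 and 584 CPM at 0 hr, a log2 change of 2.31 (SE 0.25, edgeR quasi-likelihood adjusted p 0.00378) beside the 2.35 of its RNA. ERDJ3a RPFs reached 458 and 525 CPM, against 54.7 and 51.9 CPM, a log2 change of 3.21 (SE 0.23, adjusted p 0.000134) beside 3.24 in RNA. In both genes the RPF duplicates were far from overlapping.

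PDI-2 RPFs had 218 and 220 CPM at 6 hr, against 63.7 and 75.7 CPM at 0 hr. The log2 change was 1.65 (SE 0.23, edgeR quasi-likelihood adjusted p 0.0324) beside 2.17 in RNA, while the adjusted p was 0.346 with actin scaling and 0.0508 to 0.207 without any 1 library of 0 or 6 hr. Derlin 1 RPFs had 267 and 337 CPM at 6 hr, against 90.0 and 140 CPM at 0 hr, a log2 change of 1.39 (SE 0.27) beside 1.96 in RNA. Its adjusted p was 0.151, so the RPF change of Derlin 1 did not pass, although it did with DESeq2 (adjusted p 0.000806). The differences between RPF and RNA change were not tested here.

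Among the unnamed genes, Zm00001d021120 had 595 and 826 RPF CPM at 6 hr, against 46.8 and 43.1 RPF CPM at 0 hr, for a log2 change of 3.99 (SE 0.27, edgeR quasi-likelihood adjusted p 0.000134). Zm00001d043574 had 7 and 47 RPF counts at 6 hr, against 1 and 2 RPF counts at 0 hr, with an adjusted p of 0.0820 (0.0319 with actin scaling). All 5 genes whose mRNA fell had RPF changes below 0, from -2.22 to -0.84 with a median of -1.51, and none passed the test. For Zm00001d031666 the RPF values were 37.9 and 40.4 CPM at 6 hr, against 283 and 84.5 CPM at 0 hr. Replicate 1 of 0 hr was again the higher one. The log2 RPF change was -2.22 (SE 0.44), with adjusted p 0.168 by edgeR's quasi-likelihood test. In edgeR the adjusted p was 3.71e-05 with actin scaling, 0.00536 with alpha tubulin 3 scaling and 1.49e-12 with no low-count filter. It was 0.198 with DESeq2 and 0.499 with limma voom. Actin scaling of RPFs rested on as few as 80 actin counts, in replicate 1 of 6 hr. Without replicate 1 of 0 hr the log2 RPF change of this gene was -1.11.

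**Figure D5:**
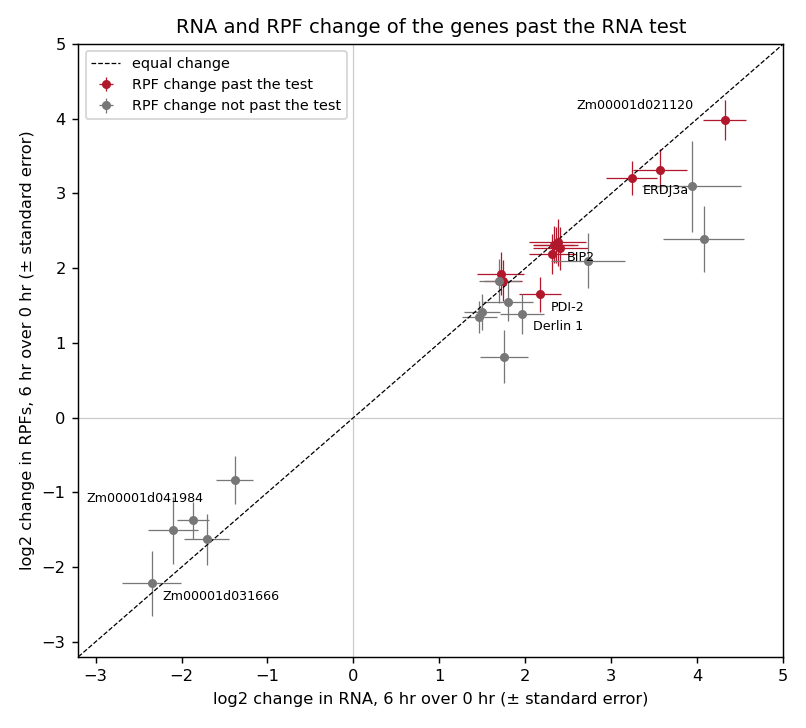
Log2 change in RPFs (vertical axis) against log2 change in RNA (horizontal axis) at 6 hr over 0 hr, each with its standard error, for the called genes. Zm00001d043574 is not drawn because its 0 hr RNA libraries held no count. All risen genes lie above 0 and all fallen genes below 0 on both axes, and the genes with an RPF change past the test are among the risen ones.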

How the data were processed

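The authors deposited raw read counts per gene. Per the study's methods, adapters and random end bases were trimmed (cutadapt 1.16), noncoding RNA reads were removed and the rest was mapped to B73 RefGen_v4 coding sequences with Bowtie 1.2, keeping 1 best hit, so near-identical gene copies can share reads. No columns were left unused (0).

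The counts were tested with edgeR 4.0.16 in R 4.3.3 (filterByExpr, TMM, quasi-likelihood test, prior count 0.125, Benjamini-Hochberg adjustment over all genes tested, threshold 0.05) with time as factor over the 6 libraries of each assay. TMM was used in place of the study's actin scaling, which is given beside it. Alternatives were total-count, actin, alpha tubulin 3 and DESeq2 1.42.0 scaling, DESeq2, limma 3.58.1 voom, other low-count filters, a replicate block, 4 libraries only and leaving out each library. SE is the log2 change divided by the square root of F. The scripts were tested on simulated data for 6 hr against 0 hr. In RNA they found 91 of 100 simulated 4-fold changes and 24 of 100 simulated 2-fold changes, with 14 false calls. In RPFs they found 90 of 100 and 19 of 100 in that order, with 17 false calls. Most simulated 2-fold changes were thus missed, so a low number of calls does not show that such changes were absent. Some of the genes called can also be false calls.

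Named are the 7 genes with a complete identifier in the study and, among called genes that average 50 counts or more and whose groups do not overlap, the 2 of largest change per direction. Outside that rule, Zm00001d041611 is named for its call with actin scaling and Zm00001d054043 for its share of the summed level. None of the identifiers matched the RefSeq table (0), so the pathway and marker lists could not be applied and no sequence is shown. The members and lists were chosen with earlier results of these data known. The p-values measure the spread between duplicates described as biological replicates.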

Additional observations from a re-analysis of the deposited data

How the results depend on the processing

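The number of genes called at 6 hr against 0 hr moved with the processing, in RNA from the 21 higher and 5 lower of edgeR with TMM. It was 65 and 74 with DESeq2, 166 and 247 with no low-count filter, and 1 lower with actin scaling (21 higher). The lower count was 3 with alpha tubulin 3 scaling, 30 with limma voom, and 8 each with total-count scaling, DESeq2 size factors, a mean of at least 50 counts and the 4 libraries only. Leaving out single libraries gave 3 to 94 higher and 0 to 172 lower genes. Actin scaling combined with leaving out a library was chosen after seeing the data, and gave 179 higher and 15 lower genes without replicate 1 of 0 hr, 80 and 372 without replicate 2 of 0 hr, 16 and 4 without replicate 1 of 6 hr, and 17 and 24 without replicate 2 of 6 hr.

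For RPFs, 13 genes were higher and 0 lower with edgeR and TMM. The counts were 54 and 9 with DESeq2, 78 and 99 with no filter, 8 and 22 with alpha tubulin 3 scaling, 23 and 1 with the 4 libraries only, and 42 and 1 lower with actin scaling and limma voom in that order. Leaving out single libraries gave 6 to 38 higher and 0 to 21 lower genes. The causes of these shifts were not tested.

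The sources do not pair replicate numbers across times, and the duplicate differences of 0 and 6 hr correlated at -0.0932 in RNA and 0.305 in RPFs, those of 0 and 12 hr at -0.396 and -0.0499, and those of 6 and 12 hr at 0.105 and 0.480. Since the correlation was not above 0.1 for every pair of times in either assay, the numbers were not taken as pairs. Adding the replicate block gave 10 higher genes and 1 lower gene in RNA, against 27 and 2 in RPFs. In that fit the edgeR adjusted p was 0.0867 for Zm00001d031666 and 0.0989 for Zm00001d041984.

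Signs turned only in values that did not pass the test. For 6 hr over 0 hr in RNA, leaving out single libraries gave -0.34 to 0.23 for actin, up to 0.24 for alpha tubulin 3 and down to -0.32 for PAB2. Of these, actin was at 0.23 without replicate 2 of 0 hr, alpha tubulin 3 at -0.046 without replicate 1 of 0 hr, and PAB2 at 0.15 without replicate 1 of 0 hr (0.49 with actin scaling as well) and 0.01 without replicate 2 of 6 hr. In RPFs the same gave up to 0.69 for actin and up to 0.22 for PAB2. Actin was at -0.14 with alpha tubulin 3 scaling and -0.19 without replicate 1 of 0 hr, and PAB2 at -0.28 with actin scaling, -0.27 with alpha tubulin 3 scaling, -0.051 without replicate 2 of 0 hr and -0.01 without replicate 1 of 6 hr. For 12 hr over 6 hr with actin scaling, alpha tubulin 3 was at 0.20, BIP2 at 0.36, PDI-2 at 0.37 and ERDJ3a at 0.30. With alpha tubulin 3 scaling BIP2 was at 0.16, PDI-2 at 0.17 and ERDJ3a at 0.10. Without replicate 2 of 12 hr they were at 0.25, 0.13 and 0.24 in that order, BIP2 was at 0.04 without replicate 1 of 6 hr, and Derlin 1 was at -0.15 without replicate 1 of 12 hr and -0.04 without replicate 2 of 6 hr. Over all libraries left out, the lowest value was -0.40 for BIP2, -0.51 for ERDJ3a and -0.26 for PDI-2, and the highest for Derlin 1 was 0.18.

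A count of 0 in replicate 1 of 0 hr allows a level of up to 1.51 CPM (3 counts, counting error only).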

Other observations

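The table also holds 174 genes under older identifiers that begin with GRMZM, with no role given in the sources used here. They took 4.58% and 4.02% of the counts in the 6 hr libraries, against 5.03% and 3.70% in the 0 hr libraries.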
